A study of Homo sapiens with 2 samples.

Results

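A set of 246 regions of chromosomes 1 to 22, made up of 2495 CpGs, was read at a depth far above the rest of the genome in whole-genome bisulfite sequencing (WGBS) of HEK293T cells, and most of its CpGs were satellite DNA beside the centromeres. Members were chosen by depth alone. A CpG was a member where at least 100 reads covered it in the negative control library (Neg) and at least 20 reads covered it in the dCas9+3A+HOXA5 library, and member CpGs under 1 kb apart were joined into a region. The members were 0.0177% of the 14111071 CpGs that both libraries listed on these chromosomes, yet they held 1.63% of all reads in Neg and 1.12% of those in dCas9+3A+HOXA5. Because depth made the choice, depth is described below and not tested.

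WGBS reads methylation from bisulfite-treated DNA, in which an unmethylated cytosine appears as T and a methylated cytosine as C. HEK293T is a human embryonic kidney cell line kept in culture. The dCas9+3A+HOXA5 cells carried, from lentiviral vectors, 3 parts: a Cas9 that no longer cuts and bears the SunTag array of peptides, the DNA methyltransferase DNMT3A joined to an antibody fragment that binds those peptides, and a guide RNA against HOXA5, and the labels give 30 days of infection and sorting for fluorescence. Per the study the negative control was not transduced, although the labels attach the same treatment text to both samples, so the titles alone set the groups. Each group was 1 library, without replicates, and every test below compares these 2 libraries and not the conditions. On chromosomes 1 to 22 the reads summed over CpGs came to 86000851 in Neg. In dCas9+3A+HOXA5 they came to 44834966, which is 0.521 of the former, and the median per listed CpG was 3 and 2 reads.

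Long arrays of tandem repeats surround human centromeres. Alpha satellite, or alphoid DNA, is built of monomers of a near-constant length, some of which carry the CENP-B box, the site bound by the centromere protein CENP-B, and the CpGs of this box can be methylated. Satellites 2 and 3 are built of diverged copies of the pentamer ATTCC. A reference assembly holds only part of such arrays, and sequences with many near-identical copies (Alu elements, ribosomal RNA genes, nuclear copies of mitochondrial DNA) share reads in the same way. Reads of the different copies cannot be told apart here, so a value below belongs to a reference position and to whatever copies the aligner placed on it, and copy number was not measured.

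The sequences of the main kinds of region are shown because they set the groups used below. All were read 5′ to 3′ from the hg19 reference. In the ATTCC-rich, G run, 5S, mitochondrial and DUX4 stretches the capitals mark member CpGs. In the ATTCC-rich, 5S and DUX4 stretches the window with many members is shown, that of the G run covers its last members, and that of the mitochondrial match covers the start of the region with the widest gap between the libraries. In the alphoid stretches the capitals mark the CENP-B box core (TTCG, 4 free bases, A, 2 free bases, CGGG), and in the Alu stretches they mark the 9-base end motif CTCCGTCTC that precedes the A-rich tail.
ATTCC-rich, chr16:46395090-46395209 (plus strand): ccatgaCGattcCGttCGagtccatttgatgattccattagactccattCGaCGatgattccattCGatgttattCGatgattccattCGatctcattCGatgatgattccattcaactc
ATTCC-rich, chr10:42386003-42386122 (plus strand): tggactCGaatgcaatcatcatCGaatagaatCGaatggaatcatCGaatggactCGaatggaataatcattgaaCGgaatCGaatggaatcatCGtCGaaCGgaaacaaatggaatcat
ATTCC-rich, chr4:49099664-49099783 (plus strand): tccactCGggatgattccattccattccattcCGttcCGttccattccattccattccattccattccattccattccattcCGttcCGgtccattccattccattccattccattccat
Alphoid, chr7:61970270-61970440 (plus strand): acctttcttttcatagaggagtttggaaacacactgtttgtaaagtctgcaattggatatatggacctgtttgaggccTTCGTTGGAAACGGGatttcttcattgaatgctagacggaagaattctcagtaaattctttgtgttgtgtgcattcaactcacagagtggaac
Alphoid, chr19:27738398-27738568 (plus strand): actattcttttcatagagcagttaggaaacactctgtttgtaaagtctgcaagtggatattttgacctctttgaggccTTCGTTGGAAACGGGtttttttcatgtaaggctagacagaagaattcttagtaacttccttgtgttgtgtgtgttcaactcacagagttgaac
Alphoid, chr1:121484970-121485140 (plus strand): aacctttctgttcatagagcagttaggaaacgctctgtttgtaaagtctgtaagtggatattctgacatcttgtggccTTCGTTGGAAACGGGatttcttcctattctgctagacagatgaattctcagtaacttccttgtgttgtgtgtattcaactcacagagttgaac
Alu, chr10:31452071-31452103 (minus strand): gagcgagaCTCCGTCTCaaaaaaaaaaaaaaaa
Alu, chr17:67445758-67445790 (minus strand): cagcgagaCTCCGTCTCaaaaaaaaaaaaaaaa
Alu, chr19:38726573-38726605 (plus strand): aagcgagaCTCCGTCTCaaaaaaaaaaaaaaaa
Alu, chr15:84156631-84156663 (minus strand): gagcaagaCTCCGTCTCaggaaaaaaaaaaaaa
G run, chr2:33141564-33141663 (plus strand): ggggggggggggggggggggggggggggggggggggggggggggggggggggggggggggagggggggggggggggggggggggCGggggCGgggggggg
Near the 5S genes, chr1:228757901-228757990 (plus strand): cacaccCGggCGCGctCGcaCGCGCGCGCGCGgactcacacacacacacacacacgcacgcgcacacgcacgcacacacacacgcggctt
Mitochondrial match, chr1:564528-564607 (plus strand): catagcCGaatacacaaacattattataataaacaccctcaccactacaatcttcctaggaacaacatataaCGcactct
DUX4 repeat, chr10:135491015-135491134 (plus strand): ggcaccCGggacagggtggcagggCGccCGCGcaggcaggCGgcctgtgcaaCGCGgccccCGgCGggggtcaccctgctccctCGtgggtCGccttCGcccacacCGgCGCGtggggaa

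By sequence, 182 of the 246 regions and 2261 of the 2495 member CpGs fell into a named group. ATTCC-rich satellite made up 55 regions and 1271 CpGs, and alphoid DNA made up 73 regions and 676 CpGs. A further 42 regions with 100 CpGs were Alu elements, 6 regions with 37 CpGs matched the mitochondrial genome, 4 regions with 29 CpGs lay within 5 kb of 5S ribosomal RNA genes, 1 region with 143 CpGs matched the ribosomal DNA contig and 1 region with 5 CpGs was a run of G. The other 64 regions with 234 CpGs belonged to none of these. Most regions were short, with a median of 3 member CpGs and 67 regions of a single CpG, but the 10 largest regions held 1402 CpGs, or 56.2% of all members.

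These motifs were features that the choice by depth did not use. The CENP-B box core, searched on both strands, was found in 122 of the 394 complete 1-kb tiles that hold a member CpG (31.0%) and in 0.0533% of all 2684312 tiles of chromosomes 1 to 22. The pentamer ATTCC in 3 tandem copies was found in 20.6% of member tiles and in 0.0276% of all tiles. Repetition at the step of the alphoid monomer, with at least 40% of bases equal, was found in 51.5% of member tiles against 0.380% of all tiles. The end motif of Alu elements was common everywhere, in 8.12% of member tiles and in 4.64% of all tiles. The telomere repeat TTAGGG in 3 tandem copies was in 0 member tiles and in 130 tiles of the genome. Each motif was counted on its own, and a tile could hold more than 1 of them.

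**Figure D1:**
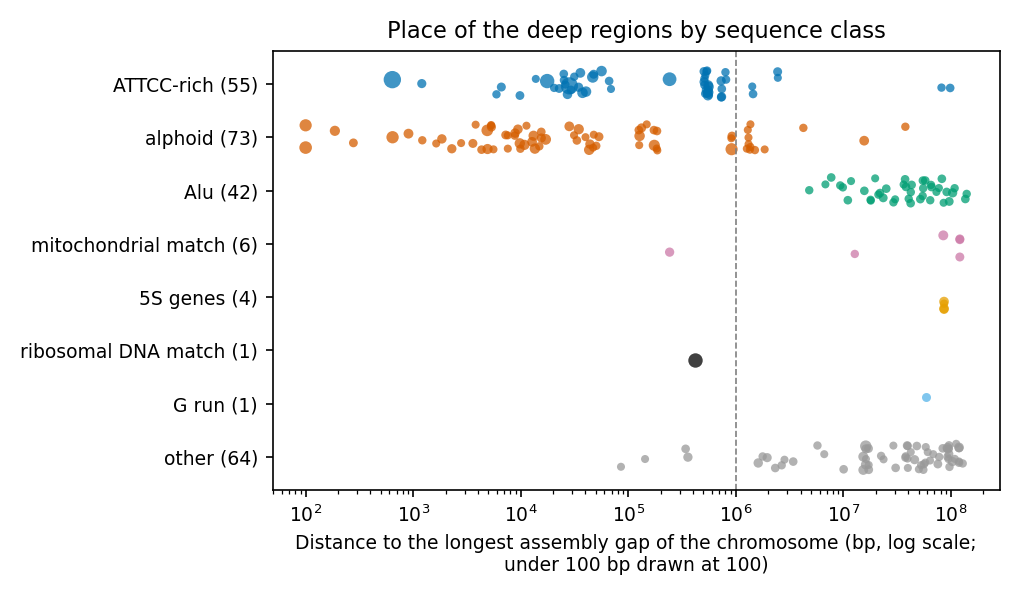
Distance in bp (log scale) from each region to the longest assembly gap of its chromosome, by sequence group with the number of regions in brackets; each point is a region, larger points hold more member CpGs, and the dashed line marks 1 Mb. ATTCC-rich and alphoid regions crowd to the left of the line, and the Alu regions all lie to its right.

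The longest assembly gap of most chromosomes is the centromere, or the heterochromatin or short arm next to it. Of the regions, 116 (47.2%) and of the member CpGs 2069 (82.9%) lay within 1 Mb of that gap, compared with 0.998% of all CpGs listed in both libraries. Within 5 Mb lay 53 of 55 ATTCC-rich and 71 of 73 alphoid regions but 1 of 42 Alu regions. Chromosome 16 held 626 member CpGs (25.1%), chromosome 10 held 590 (23.6%) and chromosome 20 held 0. By the GENCODE annotation 176 regions lay outside genes, 54 lay within a gene but outside its exons, and 16 touched an exon.

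**Figure D2:**
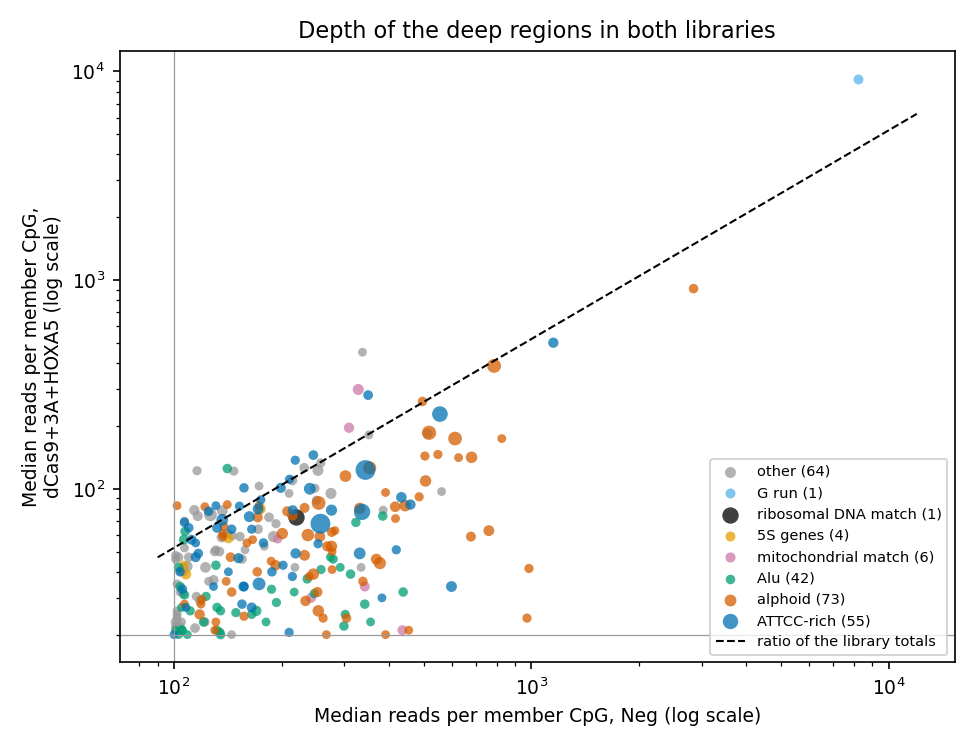
Median reads per member CpG of each region in Neg and in dCas9+3A+HOXA5, both on log scales; colours give the sequence group with its number of regions, larger points hold more CpGs, grey lines mark the minimum of 100 and 20 reads and the dashed line the ratio of the library totals, 0.521. Of the 246 regions, 216 lie below the dashed line, and the G run lies alone at the top right.

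Depth per member CpG had a median of 243 reads in Neg, with a highest value of 15786, and a median of 73 reads in dCas9+3A+HOXA5, with a highest value of 10257. Over all members the depth ratio between the libraries was 0.358, and 216 of 246 regions were below the library ratio of 0.521. The groups differed in this ratio, with a median of 0.351 over ATTCC-rich regions, 0.245 over alphoid regions and 0.174 over Alu regions. Of the Alu regions 39 of 42, and of the alphoid regions 69 of 73, were below 0.521. The minimum in Neg was higher relative to its library than the minimum in dCas9+3A+HOXA5, and the part of this choice in the low ratio was not tested.

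Near the limits, the 86 members with 100 to 104 reads in Neg had a mean methylation of 36.0% (Neg) and 39.5% (dCas9+3A+HOXA5), and the 83 CpGs just outside, with 95 to 99 reads, had 33.7% and 36.3%. The 113 members with 20 to 22 reads in dCas9+3A+HOXA5 had 34.4% and 41.3%, and the 86 CpGs just outside, with 17 to 19 reads, had 36.6% and 42.4%. A further 1563 CpGs reached 100 reads in Neg but not 20 reads in dCas9+3A+HOXA5, where 363 of them were not listed. Of these 1563, 281 lay within 1 kb of an alphoid member region, 253 within 1 kb of an ATTCC-rich one and 860 near no member region.

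**Figure D3:**
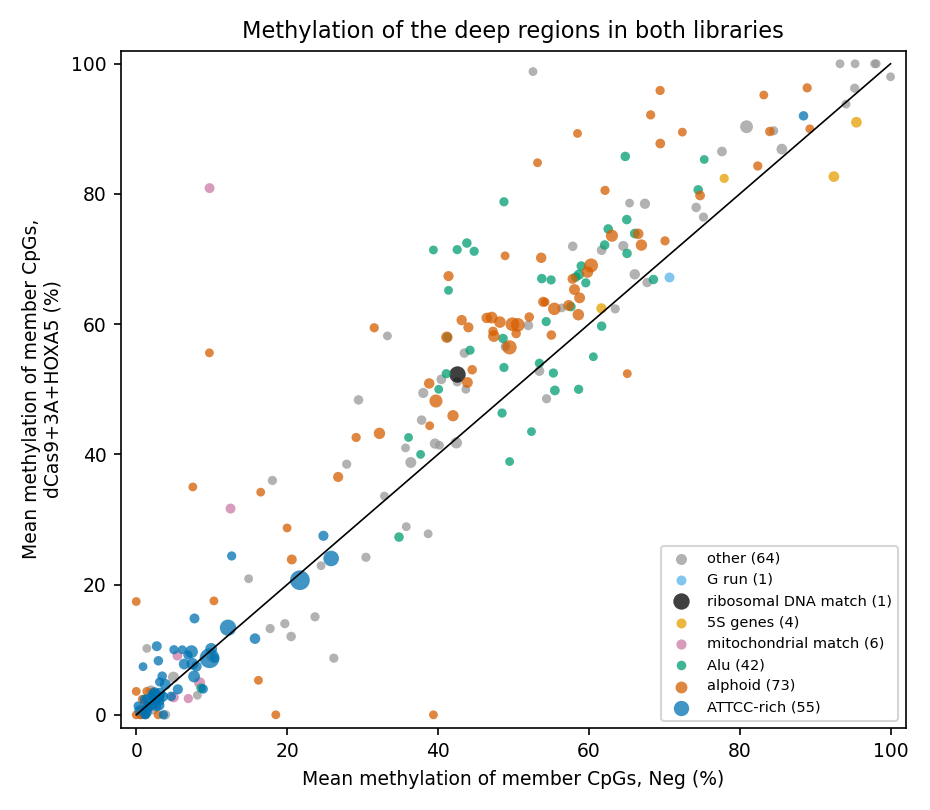
Mean methylation of the member CpGs of each region in Neg and in dCas9+3A+HOXA5, in percent; colours give the sequence group, larger points hold more CpGs and the line marks equal values. ATTCC-rich regions gather at the lower left on the line, and 65 of the 73 alphoid regions lie above it.

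The members were less methylated than the genome in both libraries. Methylation, the deposited fraction given here in percent, averaged 31.3% over the 2495 CpGs in Neg, with an SD of 30.4, and 34.9% in dCas9+3A+HOXA5, with an SD of 33.5. Among all CpGs of these chromosomes, 1273762 had 5 reads or more in both, and these averaged 70.01% (SD 33.9) and 74.8% (SD 35.3). At or under 20% were 53.0% of the members in Neg, against 15.6% of those CpGs. The mean difference of the members, dCas9+3A+HOXA5 minus Neg, was 3.64 percentage points (SD 11.1), with 1330 CpGs higher, 1120 lower and 45 equal. This average joined groups that behaved differently, since without the ATTCC-rich regions the difference was 7.91 points.

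ATTCC-rich satellite was low in methylation and had close values in both libraries. Its 1271 CpGs averaged 14.1% in Neg (SD 17.3) and 13.7% in dCas9+3A+HOXA5 (SD 18.8). Of its 55 regions 47 were under 10% in Neg, 28 were higher and 27 lower in dCas9+3A+HOXA5, and none differed by over 20 points.

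The largest region of all was ATTCC-rich, chr16:46386441-46402129, beside the gap of chromosome 16 and outside genes, with 368 member CpGs, a median of 257 and 68 reads, and means of 9.72% and 8.69%. Next to it chr16:46403406-46408715, with 142 CpGs, had 12.2% and 13.4%. On chromosome 10 the arrays chr10:42383249-42396864 with 358 CpGs and chr10:42596855-42600459 with 112 CpGs had higher levels, of 21.7% and 25.8% in Neg and 20.7% and 24.02% in dCas9+3A+HOXA5. The lowest levels of an array were on chromosome 4, where 21 ATTCC-rich regions with 96 CpGs averaged 3.28% (SD 3.93) and 4.21% (SD 6.44). Among them chr4:49151481-49153041, the deepest ATTCC-rich region by its median with 1153 and 501 reads, had 2.63% and 2.26% over 7 CpGs. Regions of the same chromosome also differed. Beside the region of chromosome 10 with 358 CpGs, 4 small ones from chr10:42356137 to chr10:42380649 had 1.37% to 5.52% in Neg, and those beside the gap of chromosome 16 ran from 2.29% at chr16:46421622-46422123 to 15.7% at chr16:46413008-46413390. The letters ATTCG, which 1 base separates from the satellite pentamer, were counted on either strand, since the arrays run in both orientations. The 844 CpGs in ATTCG averaged 12.4% in Neg (SD 13.7) and the other 427 CpGs 17.5% (SD 22.5). These SDs are spreads over CpGs, and the gap between the means was not tested. One short ATTCC-rich region on chromosome 8, chr8:145180754-145180785, far from the centromere, went against the group with 88.5% and 92% over 3 CpGs.

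Among single CpGs the deepest of this group were at chr10:42385184 and chr10:42385223. They had 11190 and 11516 reads in Neg and 6686 and 6817 reads in dCas9+3A+HOXA5. Their methylation was 2.8% and 6.5% in Neg and 1.9% and 5.2% in dCas9+3A+HOXA5. The mean over the group was 14.1% in Neg, so these deep CpGs lay under it.

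Alphoid CpGs spread from unmethylated to methylated, and most regions had higher values in dCas9+3A+HOXA5. Its 676 CpGs averaged 50.6% in Neg (SD 33.3) and 59.8% in dCas9+3A+HOXA5 (SD 32.3). Of its 73 regions 65 were higher and 7 lower in dCas9+3A+HOXA5, with a median difference of 8.70 points. Over all 9982 1-kb tiles at 40% to 70% in Neg, described below, the median difference was 10.4 points. The alphoid regions were not limited to that range, with means from 0% to 89.3% in Neg, and tiles also take in shallower CpGs. In Neg 216 of the alphoid CpGs were at or under 20% and 170 at or over 80%.

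The large alphoid regions differed in level, and each was higher in dCas9+3A+HOXA5. Region chr19:27731882-27740184 with 68 CpGs had 49.5% and 56.4%, and chr6:58776217-58779525 with 59 CpGs had 60.3% and 69.03%. Region chr1:121478650-121485400 with 56 CpGs had 50.6% and 59.9%, and chr7:61967209-61973712 with 55 CpGs had 49.9% and 59.99%. Region chr18:18515780-18520279 with 41 CpGs had 39.7% and 48.2%. In each of these 5 regions the SD over CpGs was between 26.6 and 35.8, so each held both low and high CpGs.

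Other alphoid regions were among the 10 deepest by their median. Region chr2:92311947-92313427 with 11 CpGs had 761 and 63 reads, with 43.9% and 51.05%, and chr10:42398189-42400741 with 18 CpGs had 680.5 and 141.5 reads, with 59.8% and 68.01%. Region chr11:51590449-51590617 with 5 CpGs had 678 and 59 reads, with 20.6% (SD 39.9) and 23.9% (SD 42.9). The single CpG of chr8:43798883-43798884 had 827 and 174 reads, with 20% and 28.7%. Each of these 4 was thus higher in dCas9+3A+HOXA5. The SDs here are spreads of level over CpGs and do not measure the error of a difference between the libraries.

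**Figure D4:**
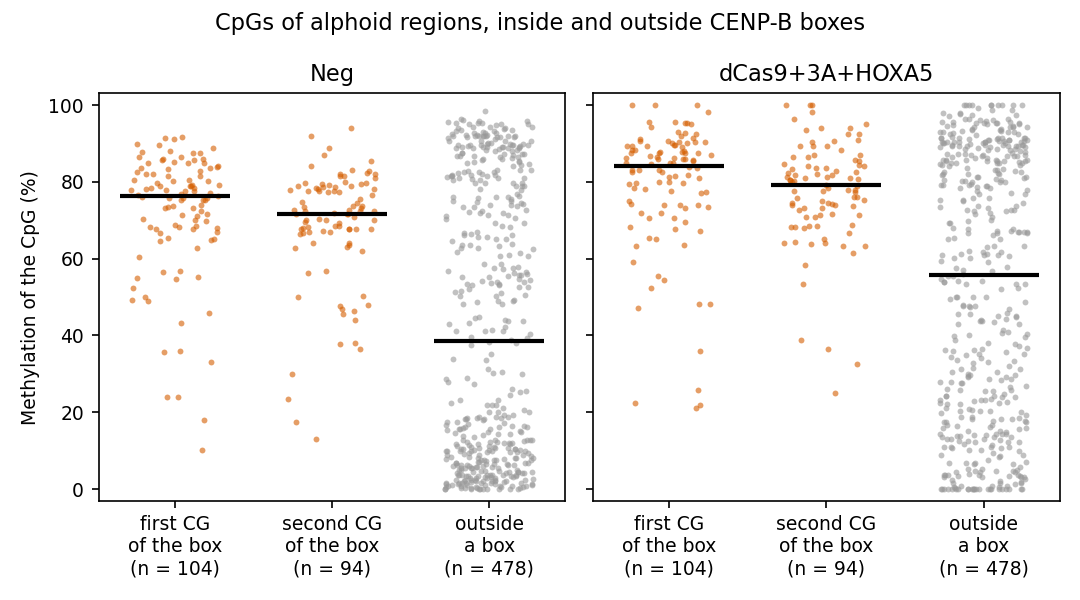
Methylation in percent of each member CpG of alphoid regions in Neg (left) and dCas9+3A+HOXA5 (right), for the first CG of a CENP-B box, the second CG and CpGs outside a box; points are CpGs, spread sideways for sight, and bars are medians. CpGs of the box gather high in both panels, and CpGs outside it spread from 0% to the top.

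The CpGs of the CENP-B box were more methylated, and less varied, than other alphoid CpGs. The first CG of the box averaged 71.6% in Neg (SD 16.5, 104 CpGs) and 78.9% in dCas9+3A+HOXA5 (SD 16.7). The second CG had 68.4% (SD 15.5, 94 CpGs) and 77.3% (SD 13.6). The 478 alphoid CpGs outside a box had 42.5% (SD 35.2) and 52.3% (SD 34.4). In the 90 boxes with both CGs as members, the second was above the first in 23 boxes in Neg and in 32 in dCas9+3A+HOXA5. Over all alphoid members the plus-strand letters before the CG went with the level: CpGs in GAACG averaged 9.18% in Neg (37 CpGs) and those in AAGCG 82.6% (37 CpGs).

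The deepest member CpG of all, chr1:121485290, was alphoid and had 12.7% in Neg over 15786 reads and 33.0% in dCas9+3A+HOXA5 over 6764 reads. Its neighbour chr1:121485390, in a CENP-B box, had 81.4% over 10941 reads and 83.6% over 4376 reads. Another CpG, chr1:121485140, had 4.50% over 11972 reads and 13.6% over 4685 reads. Of these 3 CpGs the low ones differed more between the libraries than the high one. Region chr10:42527981-42528047, with the highest median alphoid depth (2846 and 910 reads), also held both kinds of CpG, its 2 box CpGs at 70.3% and 76.7% in Neg and 80.1% and 83.0% in dCas9+3A+HOXA5, and its other CpG at 4.10% over 301 reads and 12.6% over 37 reads. There the low CpG did not differ more than both of the high ones.

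In some alphoid regions the depth ratio between the libraries lay far under 0.521, which was not tested because depth chose the members. At chr9:69711105-69711115 the median was 973 reads in Neg and 24 reads in dCas9+3A+HOXA5, with 68.2% and 92.2% over 2 CpGs. At chr9:66971227-66971237 it was 985.5 and 41.5 reads, with 70.1% and 72.8%. Region chr2:132997535-132997545 in an intron of ANKRD30BL had 31.6% (95% Wilson interval of the read share 27.7 to 35.7) and 59.5% (44.3 to 71.2) at 261.5 and 24 reads. Intervals here and below use counts summed over CpGs, so a read over several CpGs counts more than once and they can be too narrow. They cover no error beyond counting, and PCR reads without molecular identifiers are not independent molecules.

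The Alu regions were single, scattered elements with moderate methylation and the lowest relative depth. Their 100 CpGs averaged 53.9% in Neg (SD 14.98) and 61.8% in dCas9+3A+HOXA5 (SD 19.7), and 31 of 42 regions were higher and 11 lower. The median difference of these regions was 8.37 points, against 10.4 points over all 1-kb tiles at 40% to 70% in Neg. The Alu regions were not limited to that range, with means from 8.6% to 75.3% in Neg. The CG of the end motif was the member in 24 regions, with a median of 177.5 reads in Neg, 30 reads in dCas9+3A+HOXA5 and means of 48.0% (SD 10.5) and 56.4% (SD 18.1). This motif held 0.962% of the members and 0.348% of all CpGs listed in both libraries. Over all 104947 listed CpGs of the motif, member or not, the depth ratio of the libraries was 0.431, or 0.828 times the library ratio. The Alu members together had a much lower ratio, 0.1945, and the part of the choice by depth in it was not tested. Of the Alu member CpGs with at least 20 reads on the opposite strand, 16.2% had a G share under 90% in Neg, that is, part of their reads carried A opposite the C, compared with 7.34% of 37494 other CpGs, 4.17% of ATTCC-rich members, 8.44% of alphoid members and 21.5% of the members in no named group, so this was not particular to Alu. Named examples were chr19:38726573-38726605, drawn above, and regions within the genes SPON1, MAP2K6 and PTPRN2. The Alu region chr2:203478572-203478581, near a group of MT pseudogenes, had 105.5 and 21 reads, with 55.3% and 52.5% over 2 CpGs.

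**Figure D5:**
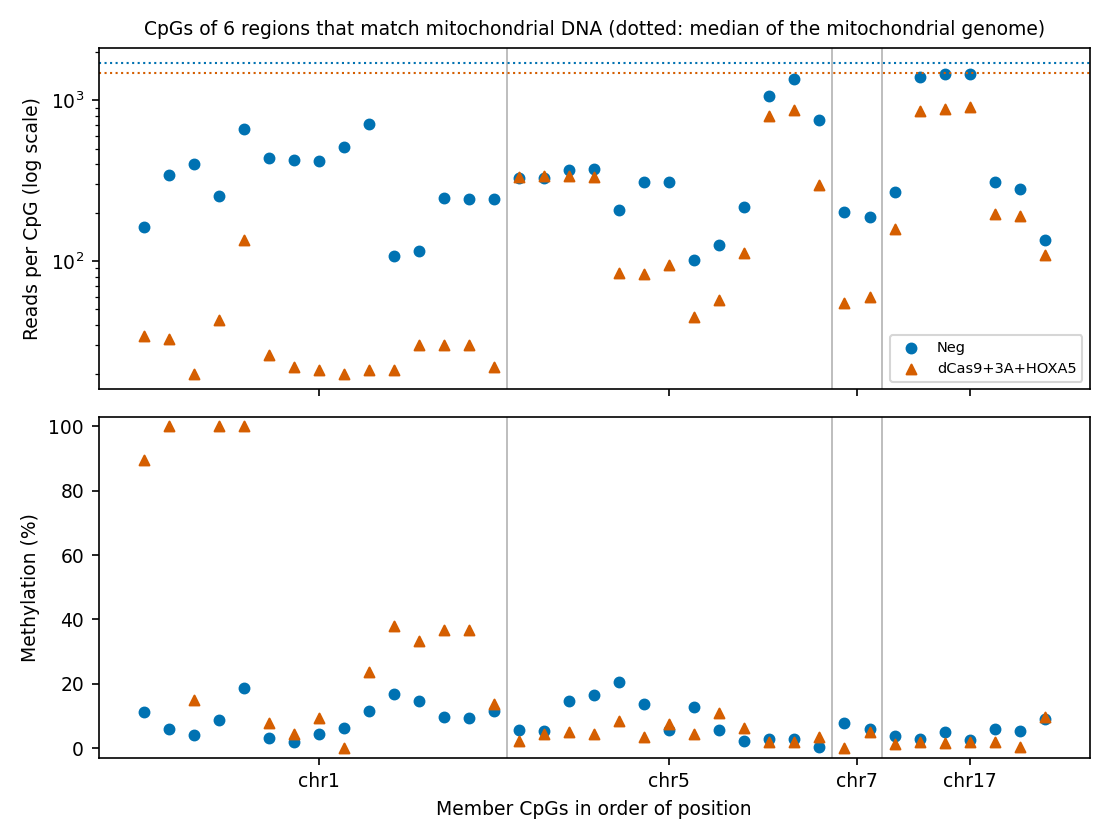
Reads per CpG (top, log scale) and methylation in percent (bottom) of the 37 member CpGs in regions that match mitochondrial DNA, in order of position and split by chromosome; circles are Neg, triangles dCas9+3A+HOXA5, and dotted lines the median depth of the mitochondrial genome in each library. The chromosome 1 triangles lie far below the circles in depth and above them in methylation for most CpGs, whereas on chromosomes 5 and 17 both libraries are low in methylation.

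Regions that matched the mitochondrial genome differed between chromosomes and also within chromosome 1. Of these 6 regions, nuclear copies of mitochondrial DNA, 4 overlap annotated MT pseudogenes, and those that begin at chr7:45291628 and chr17:22020699 overlap no gene. On chromosome 1 the 3 regions chr1:564534-565714, chr1:567348-567403 and chr1:569129-569943, overlapping the pseudogenes MTND1P23, MTND2P28, MTCO1P12, MTATP6P1 and MTCO3P12, matched it at 98.7%, 99.1% and 98.2% identity. Their median depth was 342, 436 and 242 reads in Neg but 34, 21 and 30 reads in dCas9+3A+HOXA5. Their mean methylation was 9.72%, 5.46% and 12.5% in Neg and 80.9%, 9.10% and 31.7% in dCas9+3A+HOXA5.

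In the first of these regions the share of reads with C was 10.1% in Neg (95% Wilson interval 8.76 to 11.5) and 76.7% in dCas9+3A+HOXA5 (71.3 to 81.4). By CpG, position 564534 had 11.1% and 89.5%, position 564600 had 6.1% and 100%, position 565545 had 4.0% and 15%, position 565661 had 8.8% and 100%, and position 565713 had 18.6% and 100%. At 4 of these 5 CpGs the 2 libraries were therefore far apart. At the same 4 CpGs the share of G on the opposite strand was between 89.1% and 95.9% in Neg and between 13.2% and 55.9% in dCas9+3A+HOXA5, and the deposited fraction is scaled by that share and capped. Its part in the deposited fraction was large at position 564534, where 17 of 34 reads carried C, and smaller at position 565713, where 124 of 136 did. How the tool combined the strands at these CpGs is not given, so a high C share beside a high A share on the opposite strand leaves the meaning of the deposited fraction there unclear.

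The copies on chromosomes 5 and 17 did not share this pattern. Region chr5:134262769-134263542, in MTND4P12 within PCBD2 and 95.8% identical to the mitochondrial genome, had 328 and 299 reads and 8.40% and 4.93%. Region chr17:22020699-22020823 had 309 and 196 reads and 4.96% and 2.70%, and chr7:45291628 began a region with 195 and 57.5 reads and 6.90% and 2.50%. The 439 CpGs of the mitochondrial genome itself had a median of 1696 and 1485 reads and means of 7.24% (SD 5.27) and 4.57% (SD 5.30), close to the copies on chromosomes 5 and 17.

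Ribosomal sequences formed 5 regions. Region chr21:9825600-9827206, which overlaps the exons of MIR3648 and MIR3687 and matched the ribosomal DNA contig at 99.4% identity over 2020 bases, had 143 CpGs, a median of 219 and 73 reads, and means of 42.6% (SD 12.2) and 52.3% (SD 15.98). Its share of reads with C was 43.6% (95% Wilson interval 43.1 to 44.1) and 60.3% (59.6 to 61.0). The 5S genes encode the small RNA of the large ribosomal subunit and stand in a tandem array on chromosome 1. The 4 regions among RNA5S5 to RNA5S17 had 29 CpGs with the highest methylation of any group, 85.1% (SD 16.2) and 80.6% (SD 14.97).

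Within that array the regions differed. The spacer chr1:228757907-228757932, with 10 CpGs in 26 bases, had 95.5% and 91.0%, and the spacer chr1:228771330-228771355 had 92.5% and 82.7%. The region over the gene RNA5S9, chr1:228763929-228763990, had 61.7% (SD 16.1 over 7 CpGs) and 62.4% (SD 19.1). Another region outside the genes, chr1:228783226-228783265, had 77.95% and 82.4% over 2 CpGs. These 3 regions were above the single region over a gene in both libraries, but they differed among themselves, and the last was higher in dCas9+3A+HOXA5 while both others were lower.

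The deepest region by its median was a run of G in an intron of LINC00486, a long noncoding RNA gene, at chr2:33141281-33141655. Its 5 CpGs had 126, 446, 8235, 14894 and 13437 reads in Neg and 145, 717, 10257, 10047 and 9238 reads in dCas9+3A+HOXA5. Their methylation was 99.2%, 100%, 61.3%, 51.0% and 41.5% in Neg and 99.3%, 100%, 51.7%, 48.9% and 36.4% in dCas9+3A+HOXA5. At its first 3 CpGs the shallower library had more reads, against the library ratio of 0.521, and over all 5 CpGs the ratio was 0.819. The stretch printed above holds almost no base other than G. Opposite the CpG at position 33141289, Neg had 26 reads, 84.6% of them G, and dCas9+3A+HOXA5 had 17, 23.5% of them G. Its C shares, 95.1% and 98.6%, were raised to 100% by the scaling and the cap. The deposited fraction there is thus unclear, as at the mitochondrial match on chromosome 1. Position 33141281 had only 3 opposite-strand reads in each library. What a C share means in a run of G was not tested.

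Regions outside these groups were smaller and varied. Region chr17:41399924-41401108, between genes, was the largest with 36 CpGs, 126.5 and 75 reads, and 80.9% and 90.3%. The DUX4 repeat at chr10:135491021-135491127, in an exon of the pseudogene DUX4L13, had 15 CpGs and 42.4% (SD 15.6) and 41.8% (SD 15.1). The pseudogene ROCK1P1 held chr18:107236-110773, at 4.94% and 5.78%, and chr18:112171-112332, at 36.4% and 38.8%. Region chr1:2583700-2585424 in TTC34 was nearly unmethylated, with 2.21% and 0.880% over 10 CpGs. Region chr6:145786637-145786678 in EPM2A, near the small nuclear RNA pseudogene RNU1-33P, had 43.5% and 55.6% over 3 CpGs. By the reads summed over their CpGs, 2 regions were deeper in dCas9+3A+HOXA5 than in Neg, at chr7:157940042-157940048 in PTPRN2 with 116 and 122 reads and at chr10:106239555 in LINC02620 with 337 and 451 reads (medians). By the median the G run was also deeper there, with 8235 and 9238 reads.

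Among regions with at least 5 member CpGs, the largest gains were in mitochondrial copies of chromosome 1, chr1:564534-565714 (71.2 points, a value whose meaning is unclear for the reason given above) and chr1:569129-569943 (19.2 points), and in 3 alphoid regions of chromosome 8, chr8:46844221-46844947 (26.0 points), chr8:46841173-46841802 (17.5 points) and chr8:43825742-43828062 (16.8 points). The alphoid arrays of chromosome 8 as a whole, with 11 regions and 89 CpGs, had 48.4% and 62.9%. The largest losses were at the 5S spacers chr1:228771330-228771355 (-9.82 points) and chr1:228757907-228757932 (-4.46 points). Next came the ATTCC-rich chr16:46413008-46413390 (-4.04 points), the mitochondrial copy of chromosome 5 (-3.47 points) and the G run (-3.34 points, a mean that includes the capped CpG described above). These differences are between means over CpGs, and by the share of summed reads the order changed, with chr16:46413008-46413390 at 22.5% and 12.2% and chr1:228771330-228771355 at 92.4% and 82.2%.

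To set the members against the genome, non-overlapping 1-kb tiles with at least 5 CpGs of at least 5 reads in both libraries were tested on C counts (Fisher's exact test, two-sided) with Benjamini-Hochberg adjustment. A tile was called at an adjusted p under 0.01, from its summed reads, and a difference over 20 points between the mean deposited fractions of its CpGs. All CpGs of a tile that passed the minimum of reads entered, member or not. The reads of a tile are counts summed over CpGs, in which a read over several CpGs counts more than once. The p-values can thus be too small. Of 65600 tiles 1493 (2.28%) were called higher and 622 (0.948%) lower in dCas9+3A+HOXA5. Of the 281 tiles with a member CpG 11 (3.91%) were called higher and 0 (0%) lower. The shares within ranges of the level in Neg are given below. How the share of members called higher stood to the background depended on the setting. With a minimum of 10 reads per CpG it was under it, at 5 of 244 member tiles (2.05%) against 2.78% of all tiles. With a minimum of 1 read it was above it, at 16 of 363 (4.41%) against 1.37%, and with 3 CpGs per tile at 15 of 341 (4.4%) against 1.45%. At an unadjusted p under 0.05 by Fisher's exact test 129 member tiles were higher (45.9%, against 15.4% of all tiles) and 32 lower (11.4%, against 5.71%). Member tiles hold deeper CpGs by the choice of members, and the part of depth in these shares was not tested. The single member tile that was lower by over 20 points, chr13:55296001-55297000, was not called (Fisher's exact test, adjusted p = 0.811).

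The 11 called tiles were 7 of 112 alphoid tiles, 3 of 7 mitochondrial tiles and 1 of 100 ATTCC-rich tiles. Each call was of a whole tile and not of its members alone. The ATTCC-rich tile, chr1:224201001-224202000, had means of 21.2% and 51.4% over 7 CpGs, but its 2 members had 3.1% and 5.05%. The alphoid tile chr1:121360001-121361000 had 49.9% and 74.6% over 10 CpGs, and its 3 members 84.0% and 89.6%. At the alphoid tile chr8:46844001-46845000 the 6 members themselves had 41.4% and 67.4%. The other called tiles were not split in this way. By the share of summed reads with C, 5 of the 11 differed by under 20 points, the least being 7.22 points at the alphoid tile chr1:121360001-121361000. The largest difference was in chr1:565001-566000, with 391 of 4380 reads carrying C in Neg and 236 of 311 in dCas9+3A+HOXA5 (Fisher's exact test, adjusted p = 4.92e-152). This tile holds positions 565661 and 565713, where the opposite strand in dCas9+3A+HOXA5 was mostly A and the meaning of the C share is unclear. The same limit holds for the called tile chr1:564001-565000, which holds positions 564534 and 564600. There the opposite-strand share of G in dCas9+3A+HOXA5 was 55.9% and 30.3%. These positions gave 17 and 23 of that tile's 52 reads with C in dCas9+3A+HOXA5. The alphoid tile chr8:43827001-43828000 had 2322 of 6235 reads and 1761 of 2944 reads (Fisher's exact test, adjusted p = 1.06e-87). Differences under 20 points also passed the test: at an adjusted p under 0.01 alone were 67 of the alphoid tiles, each of them higher, and 24 of the ATTCC-rich tiles, 12 higher and 12 lower. By this rule 96 of the member tiles were higher (34.2%, against 2.84% of all tiles) and 17 lower (6.05%, against 1.09%). The 3 tiles of the ribosomal DNA match, which had a median difference of 19.5 points, also passed the p threshold alone.

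The tiles were also set side by side by their level in Neg, and the medians of member tiles and of all tiles lay within 2 points of each other in every range under 70%. Among tiles at 40% to 70% in Neg the median difference was 8.76 points over 116 member tiles and 10.4 points over all 9982 tiles. Among tiles under 20% it was -0.20 points over 104 member tiles and 0.00 points over all 6483 tiles. Among tiles at 20% to 40% it was 3.35 points over 42 member tiles and 3.50 points over 2405 tiles. Among tiles at 70% or more it was 4.72 points over 19 member tiles and 2.38 points over 46730 tiles. In every range a smaller share of member tiles than of all tiles was called higher. Under 20% in Neg it was 2.88% against 3.59%, and at 20% to 40% it was 4.76% against 9.98%. At 40% to 70% it was 5.17% against 7.54%, and at 70% or more 0% against 0.571%. The called member tiles numbered only 3, 2, 6 and 0 in these ranges. The difference between member and other tiles was not tested within a level.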

How the data were processed

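Bisulfite libraries of 2 samples were used, 1 for Neg and 1 for dCas9+3A+HOXA5. The authors trimmed reads, aligned them to hg19 and took methylation ratios per CpG with BSMAP (2.90 in the submitters' processing notes). The handling of duplicates and of reads with several matches (not given in the sources used here) bears directly on repeats. The deposited files hold, per CpG with both strands combined, the count of C reads, the count of C or T reads, which is the depth, and, for the opposite strand, the count of G reads and that of G or A reads. They also hold an estimated count, the depth scaled by the authors' tool with the opposite-strand G share, and the methylation fraction deposited by the authors, the C count over the estimated count capped at 1, with its bounds. The study states a minimum of 5 reads, but the files list shallower CpGs, so the minimum was applied here to tiles.

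Members and sequence groups were chosen with earlier results of these data known. Positions were read on GRCh37, which has the coordinates of hg19, with GENCODE release 44. Groups were set in order over each region with 250 flanking bases: a blastn (2.17.0) match of at least 80% over 100 bases to the mitochondrial genome; of at least 98% over 500 bases to the ribosomal contig; a 50-base window at least 90% G; at least 10% of bases in ATTCC on a strand; alphoid, which holds a CENP-B box or shares at least 10% of its 14-base words, directly or in steps, with a region that does (in place of the planned blastn of regions against each other, which did not finish); a 5S gene within 5 kb; and Alu, by the end motif within 30 bases of a member CpG or an alignment to signal recognition particle RNA. A gap was a run of at least 100 kb without assigned bases. Regions named were the 10 with most CpGs, the 10 deepest, the 5 largest gains and losses among those with at least 5 CpGs, and those near a list of multicopy genes; others were named after their values were seen. Tiles were tested with Fisher's exact test in numba (0.67.0), which was checked against scipy (1.17.1) and on simulated counts. Depth sets the precision: at 100 reads or more counting error is small, at 20 reads it is not.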

Additional observations from a re-analysis of the deposited data

How the results depend on the processing

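No paired analysis was possible because both groups hold a single library; no replicate could be left out. Members were redrawn at other minimums, with the values given in the order regions, CpGs, mean methylation in Neg, mean methylation in dCas9+3A+HOXA5, and depth ratio relative to the library ratio (0.687 as reported). A Neg minimum of 50 reads gave 430 regions, 3562 CpGs, 33.9%, 37.5% and 0.701. A Neg minimum of 200 reads gave 141 regions, 1496 CpGs, 30.4%, 34.0% and 0.685. A dCas9+3A+HOXA5 minimum of 50 reads gave 162 regions, 1661 CpGs, 31.4%, 34.3% and 0.741, with a difference of 2.97 points. Merging under 500 bp gave 314 regions. C over C or T counts gave means of 30.5% and 34.0%, summed reads 34.3% and 38.5% (difference 4.18 points), and the mean over regions 37.4% and 43.0% (difference 5.61 points). As alternatives chosen after seeing the data, leaving out the G run gave 31.2% in Neg and a depth ratio of 0.662, and leaving out ATTCC-rich regions gave 49.1%, 57.0%, a difference of 7.91 points and 0.707. The difference was positive under each of these settings. Member tiles called higher were 5 of 244 at a minimum of 10 reads (2.05%, against 2.78% of all tiles) and 3 of 281 at a difference over 30 points (1.07%, against 1.51%), so at these settings the members fell under the background. They were above it at the others: 16 at a minimum of 1 read (4.41% against 1.37%), 12 in 500-bp tiles (3.75% against 2.36%), 15 at 3 CpGs per tile (4.4% against 1.45%) and, added after seeing the data, 16 where the difference was that of summed read shares (5.69% against 2.43%). At each, 0 were called lower, and none of these shares was matched by level in Neg. Over all tiles, 13837 were higher and 3818 lower at a minimum of 1 read, 43 and 16 at 10 reads, 989 higher at a difference over 30 points and 2267 higher at 3 CpGs per tile. Apart from the fewer tiles that stricter settings test or call, the cause of these shifts was not tested.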
